A study of Mus musculus with 8 samples.

Results

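The transcription factor NRF2 and the enzymes that remove oxidants were followed as 42 genes in mouse pancreatic islets deficient in Sirt6, a sirtuin that deacylates chromatin. The genes were chosen by symbol for their roles in the NRF2 response, in glutathione, thioredoxin and superoxide chemistry and in the supply of NADPH. All 42 were among the 22609 symbols of the count table, and all 42 were among the 15041 that passed the filter on low counts. RNA-seq of poly(A) RNA gave 8 libraries in 4 groups of 2, from islets of male mice of mixed background, labelled as 8 to 9 weeks old. In BKO islets Sirt6 f/f was combined with MIP1-CreERT, a tamoxifen-inducible recombinase under an insulin promoter, with islets isolated 2 weeks after tamoxifen was given. Both BKO controls carried MIP1-CreERT, replicate 1 with Sirt6 f/+ and replicate 2 with Sirt6 +/+, so this group joins 2 genotypes. Whether they received tamoxifen is not stated. In EKO islets Sirt6 f/f was combined with Ngn3-Cre, active in the progenitors of all islet endocrine cells, and mice were described as 2 months old. The EKO controls carried Ngn3-Cre with Sirt6 +/+, so every group carried a Cre transgene. Before lysis, all islets spent 4 h in culture with 10% serum. Apart from the 2 genotypes of the BKO controls, no label gives the animal behind a replicate, so the spread behind each p-value is that of these libraries. Between replicates of a group, counts over genes gave chi-square values of 68.4 to 224 for each degree of freedom, above the 1 of counting error alone. Whether that spread lies between animals or between preparations is not stated.

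As background, NRF2 (encoded by Nfe2l2) is held in the cytoplasm by KEAP1, which sends it for degradation. When oxidants or electrophiles modify KEAP1, NRF2 accumulates, enters the nucleus and binds antioxidant response elements next to genes for glutathione synthesis, thioredoxin recycling, quinone reduction and NADPH supply. NRF2 is controlled mainly at the protein level, so its transcript does not measure its activity. Rodent beta cells are known for low levels of catalase and of the glutathione peroxidase GPX1 relative to liver.

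Promoter windows of 36 of the 42 genes were taken from RefSeq (GRCm38.p6), from 250 bases before to 50 after each annotated start, 44 windows in all. No window was available for Hmox1, Gclc, Gsr, Prdx6, Sod3 and Gsta4. The 44 windows were searched on both strands for TGACNNNGC, the core of the antioxidant response element. The core was present in 10 of 44 windows (22.7%), against 4071 of 32851 windows of all genes (12.4%). It stood in a window of Nfe2l2, Srxn1, Gclm, Prdx1, Pgd, Ucp2, Mt2, Txnrd1, Sod1 and G6pdx. Prdx1 and Mt2 held the same 9 letters, TGACTCAGC. The windows of Nqo1 and Prdx4 are shown because these genes had the highest fold change in EKO and in BKO. Those of Prdx1, Gclm and Txnrd1 (1 of 3 windows) are shown as genes of peroxide, glutathione and thioredoxin chemistry that hold the core. The core is in capitals, read on the strand opposite to the gene in each of these 3 windows. Nqo1 (chr8:107403156-107403455) and Prdx4 (chrX:155338411-155338710) lie on the minus strand, and Prdx1 (chr4:116685349-116685648), Gclm (chr3:122245307-122245606) and Txnrd1 (chr10:82858956-82859255) on the plus strand.
Nqo1: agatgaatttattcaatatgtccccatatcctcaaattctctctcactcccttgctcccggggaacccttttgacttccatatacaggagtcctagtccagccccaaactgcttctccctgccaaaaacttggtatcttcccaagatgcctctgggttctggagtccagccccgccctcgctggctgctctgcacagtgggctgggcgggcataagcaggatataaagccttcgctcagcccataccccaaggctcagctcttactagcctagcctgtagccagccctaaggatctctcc
Prdx4: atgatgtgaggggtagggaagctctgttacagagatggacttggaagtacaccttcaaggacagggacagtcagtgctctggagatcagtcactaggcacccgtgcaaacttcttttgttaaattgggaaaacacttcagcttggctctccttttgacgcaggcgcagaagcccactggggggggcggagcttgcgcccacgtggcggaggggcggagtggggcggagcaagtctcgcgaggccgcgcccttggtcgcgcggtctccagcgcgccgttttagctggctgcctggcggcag
Prdx1: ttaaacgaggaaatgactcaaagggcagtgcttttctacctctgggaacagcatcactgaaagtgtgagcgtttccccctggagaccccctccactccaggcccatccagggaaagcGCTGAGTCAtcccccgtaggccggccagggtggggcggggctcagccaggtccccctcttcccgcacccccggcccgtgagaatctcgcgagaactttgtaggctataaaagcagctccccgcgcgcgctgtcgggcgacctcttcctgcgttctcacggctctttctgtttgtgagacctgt
Gclm: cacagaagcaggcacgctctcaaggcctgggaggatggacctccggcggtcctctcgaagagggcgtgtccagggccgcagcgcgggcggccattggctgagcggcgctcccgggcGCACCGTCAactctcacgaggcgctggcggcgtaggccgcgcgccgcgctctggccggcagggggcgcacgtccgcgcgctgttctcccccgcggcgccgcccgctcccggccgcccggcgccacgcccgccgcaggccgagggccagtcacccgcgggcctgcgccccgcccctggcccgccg
Txnrd1: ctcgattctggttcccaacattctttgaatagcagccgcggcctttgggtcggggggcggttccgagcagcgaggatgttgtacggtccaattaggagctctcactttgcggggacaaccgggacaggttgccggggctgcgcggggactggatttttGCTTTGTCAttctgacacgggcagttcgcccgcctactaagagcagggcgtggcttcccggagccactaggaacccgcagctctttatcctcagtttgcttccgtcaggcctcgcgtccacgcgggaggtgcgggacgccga
In Prdx1 the core starts 133 bases before the annotated start, in Gclm 134 bases and in Txnrd1 92 bases. The windows of Nqo1 and Prdx4 hold no such letters. A match describes these letters only, and binding was not measured.

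Reads assigned to genes numbered 37302246 to 44442165 per library in the BKO model and 22330252 to 23673180 in the EKO model, and the 42 genes took 0.343% to 0.586% of them. The insulin gene Ins2 was at 73898 to 181444 CPM (gene counts scaled to library size). Sirt6 was at 16.8 and 22.8 CPM in BKO islets, against 18.8 and 12.6 CPM in their controls, and at 24.2 and 21.6 CPM in EKO islets, against 24.4 and 17.0 CPM. Counts per gene also hold reads from exons that Cre does not remove, so this does not check the genotype. Islets carry some exocrine and stromal tissue. The summed level of 22 acinar markers was 272 and 94.4 CPM in BKO islets, against 907 and 719 CPM in their controls, and 2596 and 281 CPM in EKO islets, against 9636 and 676 CPM. Of these markers Amy2a5 was at 0 in every library and Ptf1a in BKO replicate 1 and EKO replicate 2. All 20 that could be tested lay below both controls in both BKO libraries, where 13.8% of all tested genes did. The 10 markers of stellate cells and fibroblasts summed to 165 and 186 CPM in BKO islets, against 308 and 115 CPM in their controls, and to 1014 and 144 CPM in EKO islets, against 2466 and 36.8 CPM. In each group of the EKO model, replicate 1 thus held more acinar and stromal RNA than replicate 2. The 10 beta cell markers summed to 202442 and 307856 CPM in EKO islets, against 168032 and 267048 CPM in their controls. They summed to 202556 and 287182 CPM in BKO islets, against 179450.0 and 189119 CPM in their controls. The sum was thus higher in replicate 2 of every group, but single markers differed. In replicates 1 and 2 of the BKO controls Iapp was at 30511 and 42767 CPM. Ins1 was at 60680 and 58480 CPM there, and Ins2 at 85724 and 84130.5 CPM. Slc2a2, the glucose transporter among the 10 markers, had 101 and 507 CPM in EKO islets, against 58.6 and 464 CPM in their controls. In BKO islets it had 162 and 160 CPM, against 139 and 211 CPM in their controls. Alpha cell markers summed to 22357 and 9195 CPM in EKO islets, against 28049.9 and 37811 CPM in their controls, and to 16628 and 17159.9 CPM in BKO islets, against 13622 and 20958 CPM in their controls. In EKO all 6 alpha cell markers had a log2 fold change below 0 (median -0.97), where 48.6% of all tested genes were above 0. Of the 6, 4 lay below both controls without overlap, where 9.57% of all tested genes did. DESeq2 called 2, Irx1 and Irx2, where it called 0.601% of the genes it tested. After adjustment edgeR called 0, where it called 0.00665% of all tested genes. It gave Irx1 and Irx2 an unadjusted p under 0.05, where 3.7% of all tested genes had one. Immune cell markers summed to 393 and 220.4 CPM in BKO islets, against 174 and 164 CPM in their controls. There 9 of 10 tested had a log2 fold change above 0 (median 0.77), where 51.1% of all tested genes did. Immune cell markers summed to 256 and 259 CPM in EKO islets, against 678 and 135 CPM in their controls. In EKO 9 of 10 were below 0 (median -0.97), where 48.6% of all tested genes were above 0. The part of alpha, beta and immune cell RNA in the values of the 42 genes was not tested. In bulk islets, fewer cells of a type and less RNA per cell cannot be told apart.

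Levels between genes were compared as CPM per kilobase (kb) of exon, since longer transcripts give more reads. The metallothionein genes Mt2 and Mt1, whose proteins bind zinc and copper, and Gpx3, the secreted glutathione peroxidase, stood at the top. Their median levels over the 8 libraries were 515 CPM per kb for Mt2, 341 for Gpx3 and 293 for Mt1, with overlapping ranges. Txn1, cytosolic thioredoxin, followed at a median of 104 CPM per kb, and Prdx1, a peroxiredoxin that reduces hydrogen peroxide with thioredoxin, at 80.0 CPM per kb. Gpx1, the cytosolic glutathione peroxidase, had a median level of 64.2 CPM per kb (range 42.2 to 89.3), and Cat, catalase, of 6.83 CPM per kb (range 4.71 to 10.1). Nfe2l2 and Keap1 had overlapping levels, with medians of 19.8 and 17.4 CPM per kb. The lowest medians were those of Sod3, the extracellular superoxide dismutase, at 1.33 CPM per kb, of Slc7a11, the cystine transporter that feeds glutathione synthesis, at 1.26, and of Gsta4, a glutathione transferase for lipid aldehydes, at 1.17. The place of Slc7a11 rests on its exon length of 13922 bases, the longest of the 42. Before division by length it was at 7.07 to 31.3 CPM, where Gsta4 was at 0.418 to 3.87 CPM.

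**Figure D1:**
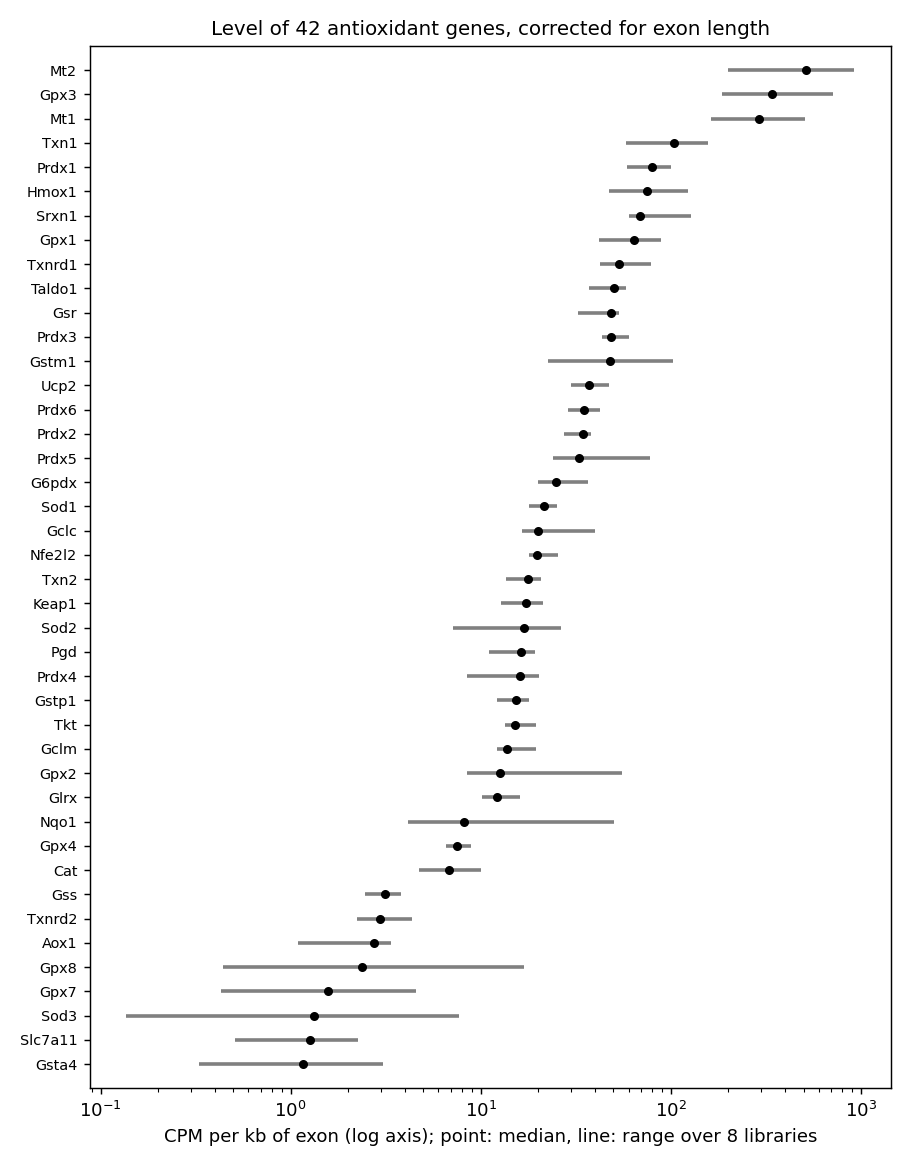
Level of each of the 42 genes in CPM per kb of exon on a log axis, with the median as a point and the range over the 8 libraries as a line. Medians span from 1.17 (Gsta4) to 515 (Mt2), and Sod3, Gpx8, Nqo1 and Gpx7 have the widest ranges as folds.

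The fold between the highest and the lowest library was 56.4 for Sod3, 38.1 for Gpx8, 12.2 for Nqo1 and 10.6 for Gpx7. It was 1.36 for Gpx4, 1.38 for Prdx2, 1.39 for Sod1 and 1.41 for Nfe2l2. Replicates of these genes lay closer together in the BKO model than in the EKO model. The median absolute log2 ratio between the 2 libraries of a group was 0.23 in BKO and 0.18 in the BKO controls, with 0.24 and 0.20 over all tested genes. It was 0.50 in EKO and 0.52 in the EKO controls, with 0.35 and 0.45 over all tested genes. In the EKO controls 35 of the 42 genes were higher in replicate 1, where 50.4% of all tested genes were.

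The first comparison concerned islets 2 weeks after adult beta cells lost Sirt6. Prdx4, a peroxiredoxin of the endoplasmic reticulum, was 1.80-fold higher in BKO islets at an unadjusted p under 0.05, as 1 of 42 genes (2.38%). Of all tested genes 0.977% had such a p, and 0.705% were higher with it. None of the 42 passed an adjusted p of 0.05 in edgeR's quasi-likelihood test (Benjamini-Hochberg adjustment over all tested genes), where 0% of tested genes passed. DESeq2, which called 0.049% of the genes it tested, and limma-voom, which called 0%, also called 0 of the 42. The log2 fold change was above 0 for 22 of 42 genes (52.4%), with a median of 0.0071, where 51.1% of all genes were above 0 with a median of 0.0052. Both BKO libraries lay above both controls for 11 of 42 genes (26.2%), where 16.3% of all genes did. They lay below both for 4 (9.52%), where 13.8% did. With the acinar level as a covariate the median of the 42 was 0.25, where that of all genes was 0.021, and the count at an unadjusted p under 0.05 was 5 of 42 (11.9%, with 7.24% of all genes). Without any 1 library of the BKO model, 0 of the 42 genes and 0.473% to 1.14% of all genes had such a p.

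The second comparison concerned islets whose endocrine lineage lacked Sirt6 from its origin. Nqo1, a quinone reductase, was 7.06-fold higher in EKO islets, and Ucp2, a mitochondrial carrier, was higher as well, both at an unadjusted p under 0.05 (2 of 42, 4.76%). Of all tested genes 3.7% had such a p, and 2.11% were higher with it. None of the 42 passed an adjusted p of 0.05 in edgeR, where 0.00665% of tested genes (1 gene) did, or in limma-voom, which called the same share. DESeq2 called Nqo1 alone of the 42, where it called 0.601% of the genes it tested. The log2 fold change was above 0 for 28 of 42 genes (66.7%), with a median of 0.10, where 48.6% of all genes were above 0 with a median of -0.011. Both EKO libraries lay above both controls for 7 of 42 genes (16.7%), where 12.5% of all genes did. They lay below both for 0, where 9.57% did. The direction of the median rested on single libraries. It was -0.056 without EKO replicate 1 and -0.031 without EKO control replicate 2. Leaving out EKO control replicate 1 gave 0.37. The median of all genes in these 3 fits ran from -0.026 to 0.025. The count at an unadjusted p under 0.05 also moved with the fit, for the 42 genes and for all genes. It was 5 of 42 (11.9%, with 3% of all genes) without EKO replicate 2, 7 of 42 (16.7%, with 7.09% of all genes) without replicate 1 of the EKO controls and 8 of 42 (19%, with 10.3% of all genes) without replicate 2 of the EKO controls. With the acinar level as a covariate it was 9 of 42 (21.4%, with 6.78% of all genes). With both libraries numbered 1 of the EKO model left out, a choice made after seeing the data, it was 8 of 42 (19%, with 7.27% of all genes).

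**Figure D2:**
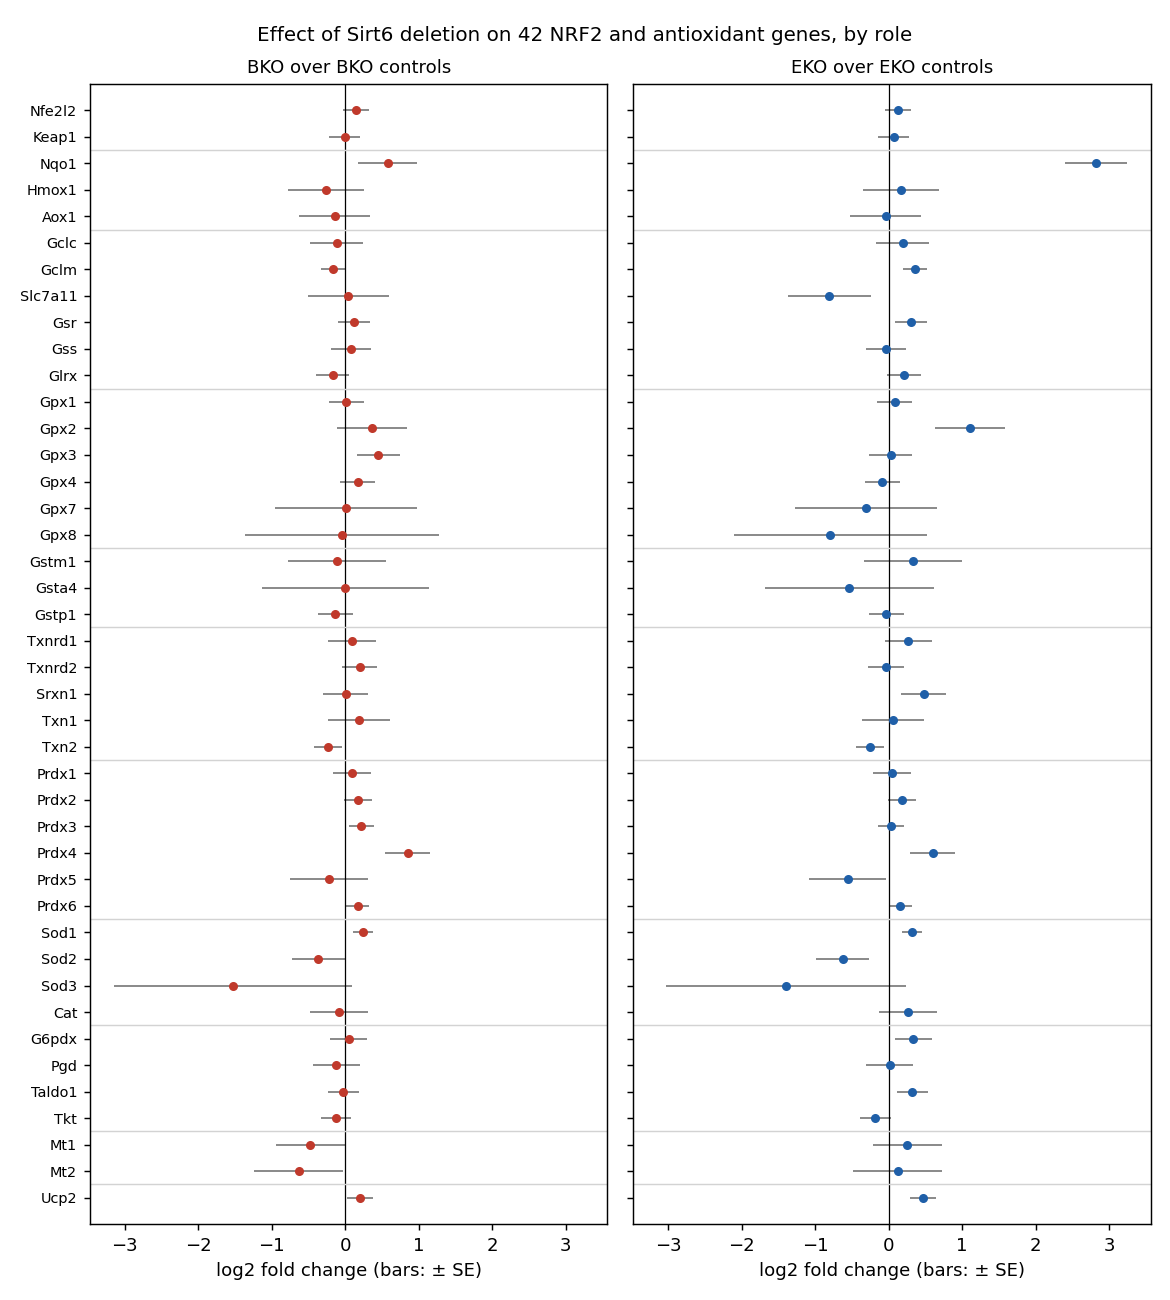
Log2 fold change of each of the 42 genes (point) with its SE (bar), for BKO over its controls on the left and EKO over its controls on the right, grouped by role from the regulators at the top to Ucp2 at the bottom. Nqo1 stands apart at 2.82 in EKO, and Sod3, at -1.53 in BKO and -1.40 in EKO, has the longest bars.

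The transcripts of the regulators differed little between groups. Nfe2l2 was at 77.7 and 78.2 CPM in BKO islets, against 69.6 and 71.7 CPM in their controls. It was at 68.4 and 96.4 CPM in EKO islets, against 77.6 and 72.9 CPM in their controls. Both BKO libraries lay above both controls by a small margin, while EKO libraries lay on either side of theirs. Its log2 fold change was 0.14 ± 0.18 in BKO and 0.13 ± 0.18 in EKO (SE, n = 2 libraries per group), and edgeR gave an adjusted p of 1 for each. Keap1, which encodes the repressor of NRF2, was at 80.9 and 100.0 CPM in BKO islets, against 95.03 and 87.0 CPM in their controls. It was at 65.7 and 82.4 CPM in EKO islets, against 60.1 and 81.0 CPM in their controls. The groups overlapped in both models, and the 95% interval of the log2 fold change ran from -0.51 to 0.50 in BKO and from -0.44 to 0.58 in EKO.

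Nqo1 encodes NAD(P)H quinone dehydrogenase, which reduces quinones and is widely used as a readout of NRF2 activity. It was at 34.3 and 78.3 CPM in EKO islets, against 6.42 and 9.53 CPM in their controls. Both EKO levels exceeded every other library of the series, and the EKO libraries differed over 2-fold from each other. It was at 15.0 and 15.2 CPM in BKO islets, against 9.94 and 10.3 CPM in their controls, again without overlap. The log2 fold change was 2.82 ± 0.42 in EKO (7.06-fold), with an unadjusted p of 4.20e-04 and an adjusted p of 0.627 in edgeR, 0.885 in limma-voom and 5.27e-07 in DESeq2. In BKO it was 0.57 ± 0.40, with an adjusted p of 1 in edgeR. With the acinar level as a covariate the log2 fold change was 2.38 in EKO and 0.077 in BKO, where acinar level and genotype were largely confounded. Without any 1 library the EKO value was 2.11 to 3.30, lowest without EKO replicate 2. The EKO effect minus the BKO effect, tested in the same fit, was 2.24 ± 0.57 on the log2 scale, with an unadjusted p of 0.00656 and an adjusted p of 0.99999 in edgeR. It was the 1 gene of the 42 with an unadjusted p under 0.05 for that difference, where 1.01% of all genes were, and 0% of all genes passed adjustment in edgeR or limma-voom. The authors' deposited table for EKO lists Nqo1 at a log2 fold change of 1.54 with a standard error of 0.318 and an adjusted p of 0.00163. That estimate is below the 2.82 found here, and the cause of the gap was not tested. Nqo1 was the 1 gene of the 42 among the 243 (1.07% of all symbols) of the authors' deposited table.

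**Figure D3:**
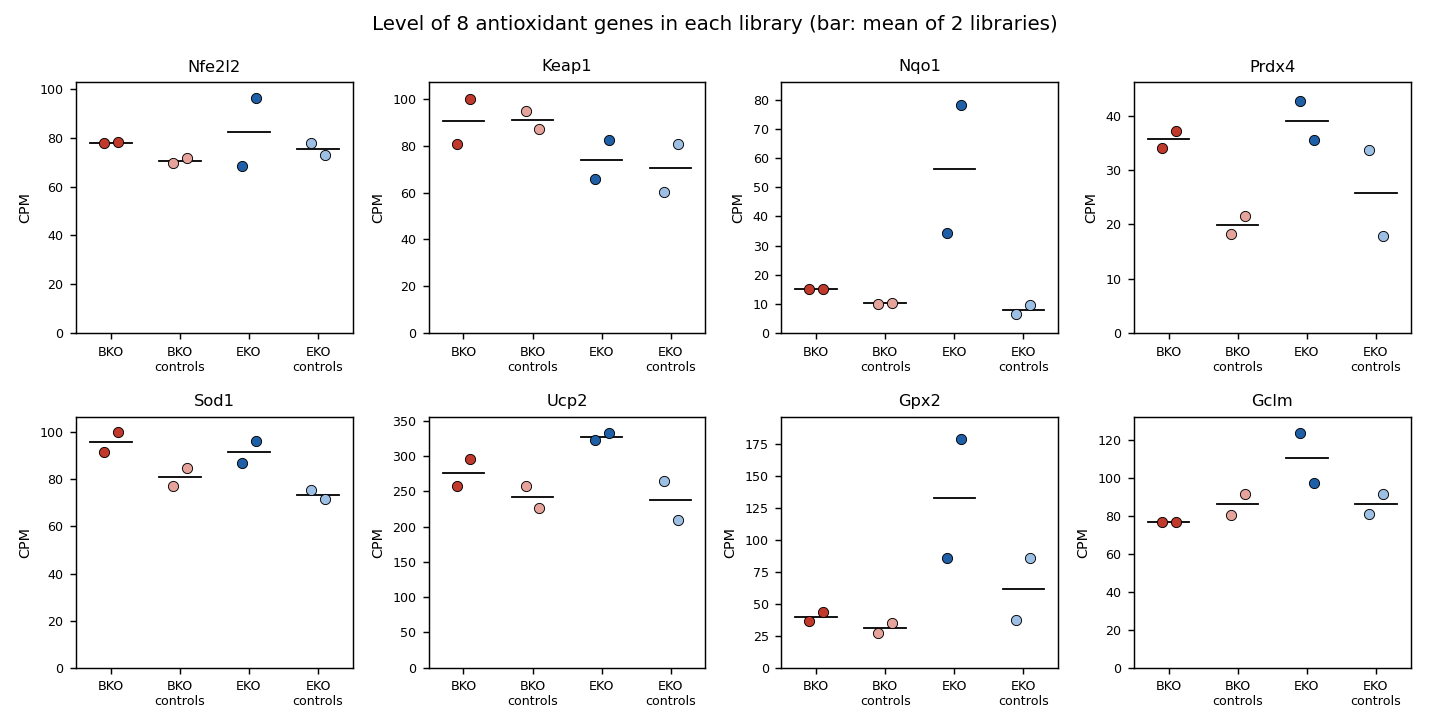
CPM of 8 antioxidant genes in each library (points, replicate 1 on the left) with the mean of the 2 libraries of a group (bar), each axis starting at 0. Nqo1 stands at 34.3 and 78.3 CPM in EKO islets, against 6.42 and 9.53 CPM in their controls, while Nfe2l2 and Keap1 stay between 60.1 and 100.0 CPM in every library.

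The other classical NRF2 targets overlapped between groups, with Gclm as the exception. Hmox1, heme oxygenase, was at 90.7 and 149 CPM in BKO islets, against 183 and 105 CPM in their controls. It was at 217 and 82.9 CPM in EKO islets, against 154 and 113 CPM in their controls. Replicates of a group differed as much as groups did, and the log2 fold change was -0.26 ± 0.51 in BKO and 0.17 ± 0.51 in EKO. Srxn1, sulfiredoxin, which restores overoxidized peroxiredoxins, was at 182 and 206 CPM in BKO islets, against 193 and 193 CPM in their controls. It was at 361 and 197 CPM in EKO islets, against 229 and 171 CPM in their controls. One high library, EKO replicate 1, set the EKO mean, and the log2 fold change was 0.0021 ± 0.30 in BKO and 0.48 ± 0.30 in EKO. Txnrd1, cytosolic thioredoxin reductase, was at 379.7 and 460.3 CPM in BKO islets, against 457 and 333 CPM in their controls. It was at 561 and 301 CPM in EKO islets, against 378 and 337 CPM in their controls. EKO replicate 1 was the highest and EKO replicate 2 the lowest of all 8 libraries for this gene, with log2 fold changes of 0.089 ± 0.32 in BKO and 0.27 ± 0.32 in EKO.

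In glutathione synthesis, the modifier and the catalytic subunit of glutamate-cysteine ligase are encoded by Gclm and Gclc. Gclm was at 77.1 and 76.7 CPM in BKO islets, against 80.8 and 92.0 CPM in their controls. It was at 124 and 97.5 CPM in EKO islets, against 81.0 and 91.5 CPM in their controls. The BKO libraries lay below both controls and the EKO libraries above both, with log2 fold changes of -0.17 ± 0.17 in BKO and 0.36 ± 0.17 in EKO. Gclc was at 73.9 and 62.3 CPM in BKO islets, against 77.5 and 70.2 CPM in their controls. It was at 150.4 and 80.5 CPM in EKO islets, against 128 and 74.0 CPM in their controls. In the EKO model both libraries numbered 1 exceeded both numbered 2, and the log2 fold change was -0.12 ± 0.36 in BKO and 0.19 ± 0.36 in EKO. Slc7a11 was at 31.3 and 17.8 CPM in BKO islets, against 30.5 and 17.3 CPM in their controls. It was at 13.3 and 7.07 CPM in EKO islets, against 25.2 and 10.5 CPM in their controls. Replicate 1 was the higher in every group, and the log2 fold change was 0.042 ± 0.56 in BKO and -0.81 ± 0.57 in EKO. Gss, glutathione synthetase, Gsr, glutathione reductase, and Glrx, glutaredoxin, had log2 fold changes of -0.17 to 0.12 in BKO, while in EKO they had -0.034 to 0.30.

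Among the 6 peroxiredoxins, 5 had a log2 fold change above 0 in each model. Prdx4 uses hydrogen peroxide to drive disulfide formation in the endoplasmic reticulum. It was at 34.1 and 37.2 CPM in BKO islets, against 18.2 and 21.5 CPM in their controls. It was at 42.7 and 35.5 CPM in EKO islets, against 33.7 and 17.9 CPM in their controls. The Sirt6-deleted libraries lay above their controls in both models, narrowly so in EKO. The log2 fold change was 0.85 ± 0.31 in BKO, with an unadjusted p of 0.0310 and an adjusted p of 1 in edgeR, and 0.60 ± 0.31 in EKO, with an unadjusted p of 0.0956. Without any 1 library of the BKO model, its BKO value was 0.73 to 0.97, with an unadjusted p in edgeR of 0.0666 to 0.135. The authors' deposited table for BKO lists Prdx4 at a log2 fold change of 0.66 with a standard error of 0.159 and an adjusted p of 0.0104. That estimate is below the 0.85 found here, and the cause of the gap was not tested. Prdx4 was the 1 gene of the 42 among the 99 (0.438% of all symbols) of the authors' deposited table. Prdx1, Prdx2, Prdx3 and Prdx6 had log2 fold changes of 0.094 to 0.22 in BKO, and their EKO values were 0.033 to 0.18. Prdx5, found in mitochondria, peroxisomes and cytosol, was at 166 CPM in EKO control replicate 1 and at 51.4 to 93.4 CPM in the other libraries.

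Of the superoxide dismutases, Sod1, the cytosolic copper-zinc enzyme, was at 91.8 and 100.0 CPM in BKO islets, against 77.0 and 84.9 CPM in their controls. It was at 87.0 and 96.4 CPM in EKO islets, against 75.4 and 71.8 CPM in their controls. Sirt6-deleted libraries exceeded the controls of their model by a small margin, with log2 fold changes of 0.24 ± 0.13 in BKO and 0.32 ± 0.13 in EKO. Sod2, the mitochondrial manganese enzyme, was at 164 and 191 CPM in BKO islets, against 266 and 193 CPM in their controls. It was at 95.8 and 71.9 CPM in EKO islets, against 174 and 84.5 CPM in their controls. Its groups overlapped in EKO and were narrowly separate in BKO, with log2 fold changes of -0.37 ± 0.36 in BKO and -0.62 ± 0.36 in EKO. Cat was at 19.0 and 12.6 CPM in BKO islets, against 17.9 and 15.7 CPM in their controls. It was at 26.4 and 17.8 CPM in EKO islets, against 24.5 and 12.3 CPM in their controls, with overlap in both models.

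Of the 6 glutathione peroxidases, Gpx2, best known from gut epithelium, had the highest fold change in EKO. It was at 86.2 and 179 CPM in EKO islets, against 37.2 and 85.7 CPM in their controls. It was at 36.3 and 44.0 CPM in BKO islets, against 27.3 and 35.3 CPM in their controls. The Sirt6-deleted libraries lay above their controls in both models, by less than 1 CPM for the nearest pair in each model. The log2 fold change was 1.11 ± 0.48 in EKO, with an unadjusted p of 0.0566 and an adjusted p of 1 in edgeR, and 0.36 ± 0.47 in BKO. Gpx3 was at 1292 and 1232 CPM in BKO islets, against 746 and 1101 CPM in their controls. It was at 490.2 and 345 CPM in EKO islets, against 479 and 338 CPM in their controls. Its log2 fold change was 0.45 ± 0.29 in BKO and 0.031 ± 0.29 in EKO. All 4 libraries of the BKO model lay above all 4 of the EKO model for Gpx3, a difference that cannot be told apart from those of Cre line, tamoxifen and depth. Gpx1 had log2 fold changes of 0.013 in BKO and 0.087 in EKO, and Gpx4, which reduces lipid peroxides, of 0.17 in BKO and -0.082 in EKO.

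Ucp2, a carrier of the inner mitochondrial membrane that has been linked to lower superoxide and insulin secretion in beta cells, was at 323 and 332 CPM in EKO islets, against 265 and 209.7 CPM in their controls. It was at 257 and 296 CPM in BKO islets, against 257 and 226 CPM in their controls. The EKO libraries lay above both controls, while the BKO groups overlapped. The log2 fold change was 0.46 ± 0.18 in EKO, with an unadjusted p of 0.0364 and an adjusted p of 1 in edgeR, and 0.19 ± 0.18 in BKO. G6pdx, Pgd, Taldo1 and Tkt, enzymes of the pentose phosphate pathway, had log2 fold changes of -0.13 to 0.043 in BKO, and for EKO the range was -0.18 to 0.34. Among these, Taldo1, transaldolase, was at 117 and 116 CPM in EKO islets, against 104 and 81.0 CPM in their controls, without overlap.

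The metallothioneins varied between libraries of the same group. Mt1 was at 262 and 550.5 CPM in BKO islets, against 637 and 494 CPM in their controls. It was at 411 and 212 CPM in EKO islets, against 319 and 203 CPM in their controls. Mt2 was at 197 and 417 CPM in BKO islets, against 543 and 408 CPM in their controls. BKO replicate 1 was low for both genes, and each gene's groups overlapped. Mt2 was at 329 and 118 CPM in EKO islets, against 277 and 134 CPM in their controls. The log2 fold changes of Mt1 were -0.48 ± 0.47 in BKO and 0.26 ± 0.47 in EKO, and those of Mt2 -0.63 ± 0.61 and 0.12 ± 0.60 in the same order. Txn2, mitochondrial thioredoxin, was at 67.2 and 75.6 CPM in BKO islets, against 84.2 and 84.2 CPM in their controls, without overlap, with a log2 fold change of -0.24 ± 0.19. Txn1 had log2 fold changes of 0.19 in BKO and 0.064 in EKO, and Txnrd2, mitochondrial thioredoxin reductase, of 0.19 and -0.036 in the same order.

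Some low genes varied more between replicates than between groups. Sod3 was at 7.07 and 3.78 CPM in BKO islets, against 28.8 and 2.54 CPM in their controls. It was at 6.17 and 2.06 CPM in EKO islets, against 21.2 and 0.511 CPM in their controls. Gpx8, a peroxidase of the endoplasmic reticulum, was at 7.88 and 2.62 CPM in EKO islets, against 17.7 and 0.465 CPM in their controls, and at 1.97 to 2.61 CPM in the BKO model. Replicate 1 of the EKO controls was the highest of the EKO model for both genes and replicate 2 of the EKO controls the lowest. Gpx7, a relative of Gpx8, was at 3.33 and 1.92 CPM in EKO islets, against 5.93 and 0.558 CPM in their controls. The summed stellate and fibroblast markers were at 1014 and 144 CPM in EKO islets, against 2466 and 36.8 CPM in their controls. Within the EKO model they had the same order of libraries as Sod3, Gpx7, Gpx8 and Gsta4. Prdx1, Prdx5, Txn1, Pgd and Gss, at higher levels, had this order there too. In the BKO model none of Sod3, Gpx7, Gpx8 and Gsta4 had the order of the summed markers. Gsta4 was at 0.610 and 2.36 CPM in BKO islets, against 2.17 and 0.803 CPM in their controls. The summed markers were at 165 and 186 CPM there, against 308 and 115 CPM. Col3a1, a collagen of stromal cells, was at 411 and 33.7 CPM in EKO islets, against 1107 and 4.79 CPM in their controls. Among the summed markers, all but Rgs5 and Des kept the order of the sum in the EKO model. Rgs5 was highest in EKO replicates 1 (23.9 CPM) and 2 (13.6 CPM), above control replicates 1 (11.6 CPM) and 2 (6.55 CPM). Des peaked in EKO replicate 2 (8.29 CPM), above control replicate 1 (7.74 CPM) and EKO replicate 1 (5.47 CPM). The part of stellate cells and fibroblasts in the values of Sod3, Gpx7, Gpx8 and Gsta4 was not tested. Gstm1, a glutathione transferase of the mu class, had log2 fold changes of -0.12 in BKO and 0.34 in EKO. Gstp1, of the pi class, had -0.14 and -0.031, and Aox1, aldehyde oxidase, -0.14 and -0.036, in the same order.

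**Figure D4:**
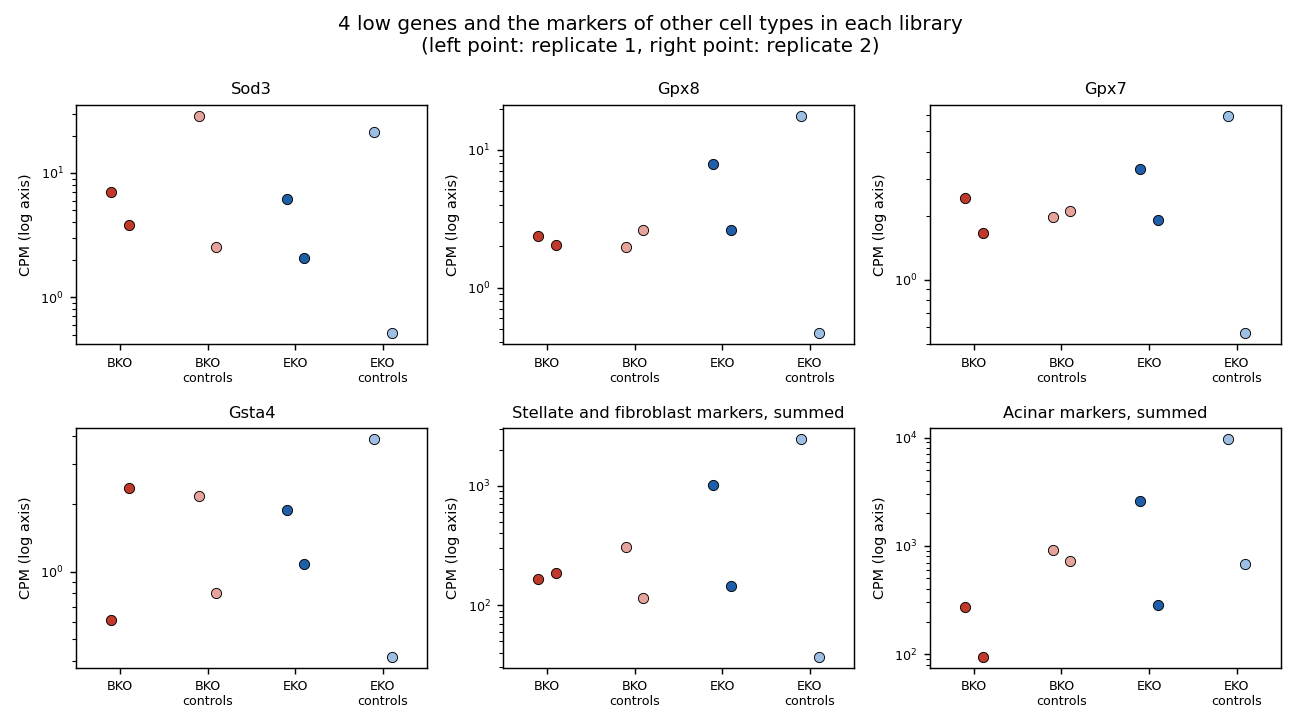
CPM on log axes of Sod3, Gpx8, Gpx7 and Gsta4 and the summed CPM of 10 stellate and fibroblast markers and 22 acinar markers, with replicate 1 as the left point of each group. In the EKO model, control replicate 1 is highest for all 6 measures and control replicate 2 lowest for the 4 genes and the stellate markers.

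The mean of both effects set 4 Sirt6-deleted libraries against 4 control libraries within their models. Nqo1, Prdx4, Sod1 and Ucp2 were higher at an unadjusted p under 0.05 (4 of 42, 9.52%). Of all tested genes 2.63% were higher with such a p, and 4.21% had it in either direction. None of the 42 passed an adjusted p of 0.05 in edgeR or limma-voom, where 0.00665% of all genes did in each. The mean log2 effect was 1.70 ± 0.29 for Nqo1, with an adjusted p of 0.47 in edgeR and 5.83e-05 in DESeq2, which called 0.619% of its genes and Nqo1 alone of the 42. It was 0.72 ± 0.22 for Prdx4, 0.28 ± 0.095 for Sod1 and 0.33 ± 0.12 for Ucp2, with an adjusted p of 0.9999 in edgeR for each. The mean effect was above 0 for 27 of 42 genes (64.3%), where 48.4% of all genes were. Its median over the 42 was 0.060, where that of all genes was -0.0092. This median also rested on single libraries. It ran from -0.027 without EKO control replicate 2 to 0.19 without EKO control replicate 1. The medians of all genes in these fits were 0.0048 and 0.026. Nqo1, Prdx4, Sod1 and Gpx2 had both Sirt6-deleted libraries above both controls in each model (4 of 42, 9.52%), where 4.47% of all genes did. The models share no control library. Across the 42 genes, which are not independent replicates, the log2 fold changes of BKO and EKO had a Pearson r of 0.57 and a Spearman rho of 0.35. These coefficients were not computed over all genes. In EKO, Nqo1 (2.82) and Sod3 (-1.40) lay furthest from 0 among the 42. Of the 42, 26 had the same sign in both models, where 64.2% of all genes did.

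Further genes of the pathway were read from 5 lists. No gene of these lists passed an adjusted p of 0.05 in edgeR in either model. In BKO, 0 of 27 other NRF2 targets, 0 of 14 regulators and partners of NRF2, 0 of 18 other glutathione transferases, 0 of 38 other redox enzymes and 0 of 18 genes of oxidant sources had an unadjusted p under 0.05, where 0.977% of all genes were. In EKO these counts were 2 of 27, 0 of 14, 4 of 18, 1 of 38 and 0 of 18, where 3.7% of all genes were. The median log2 fold change of the lists was 0.025, 0.022, 0.10, 0.082 and -0.18 in BKO, in that order, and 0.13, 0.047, 0.44, -0.037 and -0.27 in EKO. DESeq2 called 1 of the 18 glutathione transferases in EKO, Gstm7, where it called 0.601% of the genes it tested. Of the other NRF2 targets with an unadjusted p under 0.05 in EKO in edgeR, 1 was higher (Cbr1) and 1 lower (Ptgr1). Of the glutathione transferases with such a p, 3 were higher and 1 lower. Of all 15041 tested genes, 318 were higher and 238 lower with such a p.

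The list genes with the smallest p in EKO included a pair of mu-class glutathione transferases. Gstm7 was at 8.76 and 12.3 CPM in EKO islets, against 1.03 and 3.02 CPM in their controls, with a log2 fold change of 2.38 ± 0.61 and an adjusted p of 1 in edgeR. Gstm3 was at 1.49 and 3.23 CPM in EKO islets, against 0.453 and 0.372 CPM in their controls, with a log2 fold change of 2.50 ± 0.80. Members of this family are close copies, and reads with several alignments were not counted, so these values are uncertain. Cbr1, a carbonyl reductase and NRF2 target, was at 38.6 and 52.4 CPM in EKO islets, against 19.7 and 31.0 CPM in their controls, with a log2 fold change of 0.84 ± 0.28. Nnt, the mitochondrial transhydrogenase that makes NADPH and is partly deleted in the C57BL/6J strain, was at 33.9 and 42.4 CPM in EKO islets, against 62.3 and 69.4 CPM in their controls, with a log2 fold change of -0.79 ± 0.25. It was at 24.7 and 40.3 CPM in BKO islets, against 49.2 and 47.0 CPM in their controls, so that Sirt6-deleted libraries lay below controls in both models. The mice were of mixed background, and the part of strain in the Nnt values was not tested. Ptgr1, a reductase of lipid aldehydes and prostaglandins, was listed with Cbr1 among the other NRF2 targets. It was at 2.145 and 1.545 CPM in EKO islets, against 6.79 and 3.11 CPM in their controls. In BKO islets Ptgr1 was at 1.83 and 2.46 CPM, against 3.41 and 2.59 CPM in their controls, so it was lower without overlap in both models. Gstk1, a kappa-class transferase, was at 1.58 and 1.73 CPM in EKO islets, against 3.37 and 5.25 CPM in their controls. The log2 fold changes of Ptgr1 and Gstk1 in EKO were -1.42 ± 0.52 and -1.38 ± 0.52. Gstt1, another of the listed glutathione transferases, also had an unadjusted p under 0.05 in EKO in edgeR. It was at 68.2 and 129 CPM in EKO islets, against 25.5 and 62.9 CPM in their controls. In BKO islets Gstt1 was at 48.4 and 63.8 CPM, against 26.6 and 33.0 CPM in their controls.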

How the data were processed

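Poly(A) RNA of islets was sequenced, and raw counts per gene symbol were deposited by the authors. TopHat, HTSeq and mm9 appear in the submitters' processing notes; their versions and the strand setting are not stated in the sources used here. Reads with several alignments were 31.6% to 39.7% of each library's count table and entered no gene, so genes with close copies or named pseudogenes (Gstm1, Gstp1, Prdx6, Gpx2, Gpx4) are uncertain. So are genes whose exons overlap another gene in GENCODE M21, such as Gclm, Prdx5, Txnrd2, Mt2, Keap1 and Ucp2. For each model the authors also deposited a table of selected genes with a mean normalized signal, a log2 fold change, its standard error, a test score and p-values, per the file headers.

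Differences in counts were tested by quasi-likelihood F test (edgeR 4.0.16, R 4.3.3) after TMM scaling and filterByExpr with a count minimum of 10. All 8 libraries entered 1 fit of 4 groups with 4 residual degrees of freedom, and p-values were adjusted over 15041 genes with a threshold of 0.05. The fit was run on simulated counts with known changes, drawn with the fit's own spread, to check the direction and size of its estimates. That check set no requirement on how many changes were called, so it does not show power with 2 libraries per group. CPM are of TMM-scaled libraries. The 95% intervals use the fit's SE and degrees of freedom. Exon lengths came from GENCODE M21 (GRCm38), another build than mm9, and join all annotated exons of a gene, so levels per kb are approximate. Alternatives were DESeq2 1.42.0, limma 3.58.1 (voom), DESeq2 size factors, no filter, the replicate number as a block, a covariate of mean acinar level, fits of 1 model alone and each library left out. The genes and lists were chosen with earlier results of these data known. Full values are given for genes with an unadjusted p under 0.05 in any comparison, for Nfe2l2, Keap1 and 7 classical NRF2 targets, and for the list genes with the 6 smallest p-values in EKO. Other genes with full values were chosen after their values were seen.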

Additional observations from a re-analysis of the deposited data

Results flagged for a closer look

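Gclm was lower in both BKO libraries than in both BKO controls and higher in both EKO libraries than in both EKO controls. It was the 1 gene of the 42 (2.38%) with this pattern, where 84 of 15041 tested genes (0.558%) had it. The EKO effect minus the BKO effect was 0.53 ± 0.23 (SE) on the log2 scale, with an unadjusted p of 0.0632 and an adjusted p of 0.99999 in edgeR, so the difference did not pass the test.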

How the results depend on the processing

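The count of the 42 genes called was 0 in every comparison under every alternative run except DESeq2, which called 1 (Nqo1) in EKO and 1 (Nqo1) for the mean of both effects. With the replicate block the log2 fold change of Nqo1 in EKO was 2.77, with 0 of the 42 called by edgeR, and the block changed no call. Same-numbered libraries deviated together (r of 0.24 in the BKO model and 0.59 in the EKO model), which with 2 pairs does not show that the numbers pair them. With the acinar covariate the median of the 42 genes in BKO was 0.25, and Hmox1 (0.20) and Gclc (0.41) in BKO and Keap1 (-0.12) in EKO changed sign. In BKO the acinar level was largely confounded with genotype. Srxn1 in BKO changed sign with DESeq2 size factors (-0.0093), DESeq2 (-0.010), limma-voom (-9.91e-04) and the BKO-model libraries alone (-2.48e-04). With both libraries numbered 1 of the EKO model left out, chosen after seeing the data, Hmox1 (-0.45) and Txnrd1 (-0.17) changed sign in EKO. Leaving out 1 library at a time gave log2 values in BKO of -0.17 to 0.14 for Keap1, -0.66 to 0.20 for Hmox1, -0.24 to 0.0020 for Gclc, -0.12 to 0.34 for Txnrd1, -0.090 to 0.090 for Srxn1 and -0.42 to 0.51 for Slc7a11. In EKO they were -0.14 to 0.36 for Nfe2l2, -0.16 to 0.31 for Keap1, -0.68 to 0.71 for Hmox1, -0.33 to 0.60 for Gclc, -0.24 to 0.65 for Txnrd1 and -0.022 to 0.85 for Srxn1. The median difference between the models was -0.15 without EKO replicate 1 to 0.33 without EKO control replicate 1. The cause was not tested.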
